A study of Mus musculus with 6 samples.

Results

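The report covers 10 genes that are used as receptors and markers of blood vessel endothelial cells: Emcn, Flt1, Kdr, Tek, Tie1, Cdh5, Pecam1, Eng, Vwf and Esam. They were chosen by name, and every probe whose RefSeq accession maps to one of them was taken. This gave 13 probes of the 41091 probes on the array, and 10 genes of the 16514 genes that have a named probe. A gene was tested when the scanner software marked it well above background in both replicates of some group, which held for 9 of the 10 genes and not for Tek. Tie1 entered the test only through the bFGF arrays and Pecam1 through the vehicle and bFGF arrays, so the 9 tested genes are not the whole family.

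The cells were labelled primary Sertoli cells of C57BL/6J mice, the supporting cells that nurse germ cells inside the seminiferous tubule. They were kept in medium with insulin, transferrin and 5 ng/ml epidermal growth factor (EGF), which all groups shared, and were treated from day 5 for 24 h. The 3 groups received vehicle, basic fibroblast growth factor (bFGF, 20 ng with no volume given) or 10 µM PD0325901, an inhibitor of the kinases MEK1 and MEK2 that activate ERK. Each group had 2 samples, each on its own 1-colour array. The age of the animals and the purity of the cultures were not given in the sources used here, and the labels do not say whether the replicates are separate cultures or animals. The p-values thus reflect how far these samples scatter, and that scatter may be technical.

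Endothelial cells line the blood vessels, which in the testis lie outside the seminiferous tubule. Vascular endothelial growth factors (VEGF) act on them through Flt1 (VEGF receptor 1) and Kdr (VEGF receptor 2), and angiopoietins act through Tek (Tie2), with Tie1 as its partner receptor. Cdh5 (VE-cadherin), Pecam1 and Esam hold the cells together at their junctions, Emcn is a sialomucin of their surface, Eng (endoglin) is a coreceptor for ligands of the TGF-beta family, and Vwf is the adhesive glycoprotein they secrete. Several of these genes are not restricted to endothelium: Pecam1 is also found on leukocytes and platelets, and Vwf and Esam also in the platelet lineage.

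All levels below are the log2 processed signal of a probe minus the array's 75th percentile, so 0 is the 75th percentile of that array, and levels of different probes are not set against each other. That percentile lay between 1464 and 1613 on the 6 arrays, and 64.9% to 75.9% of the probes were well above background, with the most on the bFGF arrays. The detection limit, taken as the lowest level that any probe marked well above background had, was -6.27 and -6.19 with vehicle, -7.12 and -7.00 with bFGF and -6.55 and -6.26 with PD0325901. All 16 Sertoli cell markers examined, among them Sox9, Wt1 and Amh, were well above background on all 6 arrays. The same held for all 12 markers of pericytes and peritubular myoid cells and all 7 of fibroblasts, so such detection was not particular to Sertoli cell markers. The 3 groups were on 3 different slides, scanned separately, so a slide effect and a treatment effect cannot be told apart. The signal comes from whole cultures, in which fewer cells of a type and less RNA per cell cannot be told apart.

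The promoter windows of the 3 genes that fell most while staying well above background on all 6 arrays are shown because Flt1, Emcn and Kdr moved together under MEK inhibition. They are the 250 bases before the transcription start in the RefSeq table of build GRCm38.p6, 5′ to 3′ on the gene's strand: chr5:147726012-147726261 (minus strand) for Flt1, chr3:137340828-137341077 (plus strand) for Emcn and chr5:75978456-75978705 (minus strand) for Kdr. Capitals mark matches to the ETS family motifs AGGAAG or CGGAAG on either strand.
Flt1: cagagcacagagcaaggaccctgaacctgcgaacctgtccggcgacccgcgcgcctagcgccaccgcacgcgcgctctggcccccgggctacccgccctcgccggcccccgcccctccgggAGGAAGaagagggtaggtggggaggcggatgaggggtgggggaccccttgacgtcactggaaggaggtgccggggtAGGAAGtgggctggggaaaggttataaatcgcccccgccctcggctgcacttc
Emcn: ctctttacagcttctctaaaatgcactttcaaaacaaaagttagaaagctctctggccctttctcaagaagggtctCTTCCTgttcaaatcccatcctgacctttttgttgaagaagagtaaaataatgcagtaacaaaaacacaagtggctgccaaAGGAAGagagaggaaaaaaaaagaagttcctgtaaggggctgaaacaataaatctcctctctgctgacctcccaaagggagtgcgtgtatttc
Kdr: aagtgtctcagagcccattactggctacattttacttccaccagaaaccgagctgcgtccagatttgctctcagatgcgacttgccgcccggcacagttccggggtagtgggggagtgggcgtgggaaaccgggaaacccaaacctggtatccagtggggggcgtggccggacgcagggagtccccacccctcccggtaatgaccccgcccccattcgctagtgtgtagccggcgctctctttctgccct
Flt1 and Emcn held 2 matches each and Kdr none, against 39.2% of all 32851 promoter windows of this length with at least 1 match. Flt1 also held 3 matches to the Sp1 motif GGGCGG and Kdr 2, against 32.7% of all windows, and none of the 3 held the AP-1 motif TGANTCA, found in 6.75%. Of the 10 genes, 6 had a window in the table. In the others, Tie1 and Eng held 2 ETS matches each and Tek none. A match is a description of the letters only.

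The first comparison set PD0325901 against vehicle, in cells that all received EGF. Of the 9 tested genes, 6 fell (Emcn, Flt1, Kdr, Pecam1, Cdh5 and Eng), 0 rose and 3 did not pass (Vwf, Esam and Tie1). The background was high: 53.4% of the 14236 tested genes passed, 29.3% lower and 24.1% higher. The arrays of the 2 groups did not overlap in 8 of the 9 genes, against 79.7% of all tested genes. The median log2 difference of the 9 genes was -1.49, and of all tested genes -0.05. Over the 7 genes that were well above background on all 6 arrays it was -0.64, against -0.01 for all 12330 such genes. The plot of levels by array shows the falls as a drop on both PD0325901 arrays, with the vehicle and bFGF arrays side by side.

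**Figure D1:**
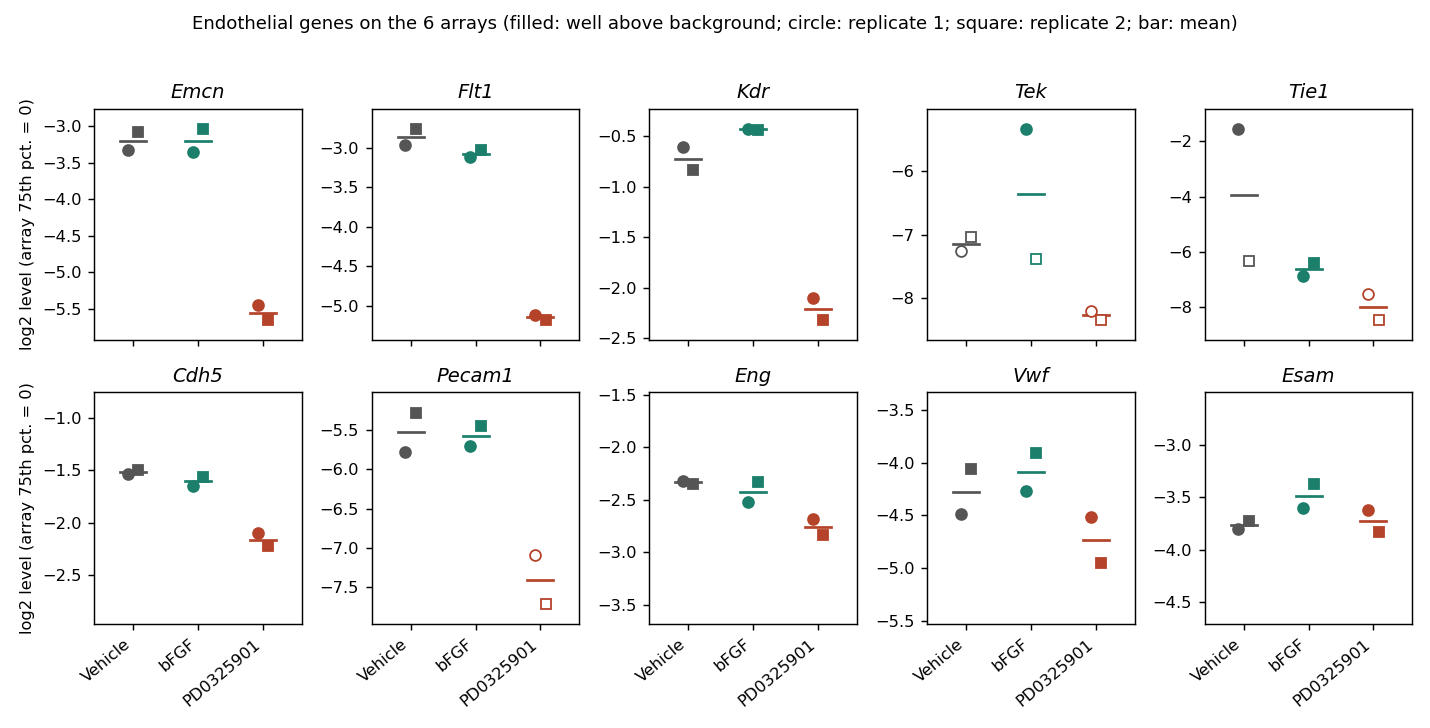
Log2 level (0 is the array's 75th percentile) of 1 probe per gene on each of the 6 arrays, with the 3 groups on the horizontal axis, the mean of 2 arrays as a bar, filled points well above background and open points not. Emcn, Flt1 and Kdr lie on the PD0325901 arrays at -5.45 and -5.65, -5.11 and -5.18, and -2.10 and -2.32, below all vehicle and bFGF arrays, and single points stand apart in Tie1 (vehicle, -1.55) and Tek (bFGF, -5.33).

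Among the VEGF receptors, Flt1, which binds VEGF-A tightly but signals weakly, had levels of -2.96 and -2.76 with vehicle, -3.12 and -3.03 with bFGF and -5.11 and -5.18 with PD0325901. All 6 arrays were well above background, and the PD0325901 arrays did not overlap with the others. Flt1 fell by 2.28 ± 0.09 in log2 units (± is the SE here and below, with n = 2 in each group), which is 4.87-fold (limma adjusted p = 1.83e-04), and of all tested genes 1.33% had a lower value. Its other probe was dim, with -6.06 and -5.72 on the vehicle arrays, of which 1 was well above background, and -8.57 and -8.32 on the PD0325901 arrays, of which neither was. This probe counted as detected only through the bFGF arrays. Its PD0325901 signals of 3.97 and 4.64 were about as large as the scanner's own errors of 4 and 4.6. It read lower too, by a bound of 1.43-fold, with measured means of -5.89 and -8.44 (limma adjusted p = 6.66e-04 over all detected probes). The vehicle mean includes the array that was not well above background, so this bound is not strict and the p-value is no firm support. Such a bound sets the mean of the brighter group against, on each dim array, the higher of the probe's own level and the lowest level well above background.

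Kdr, the main signalling receptor for VEGF-A, was read by 1 probe with 10 spots on each array, which shows the error within an array. The spot means were -0.61 and -0.84 with vehicle, -0.43 and -0.44 with bFGF and -2.10 and -2.32 with PD0325901, and the SD over the 10 spots was 0.05 to 0.09. The highest spot of either PD0325901 array was -1.99 and the lowest of either vehicle array was -0.90, so no spot overlapped. Kdr fell by 1.49 ± 0.11 (2.81-fold, limma adjusted p = 9.14e-04), which is larger than the gap of 0.23 between the vehicle arrays and that of 0.22 between the PD0325901 arrays.

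**Figure D2:**
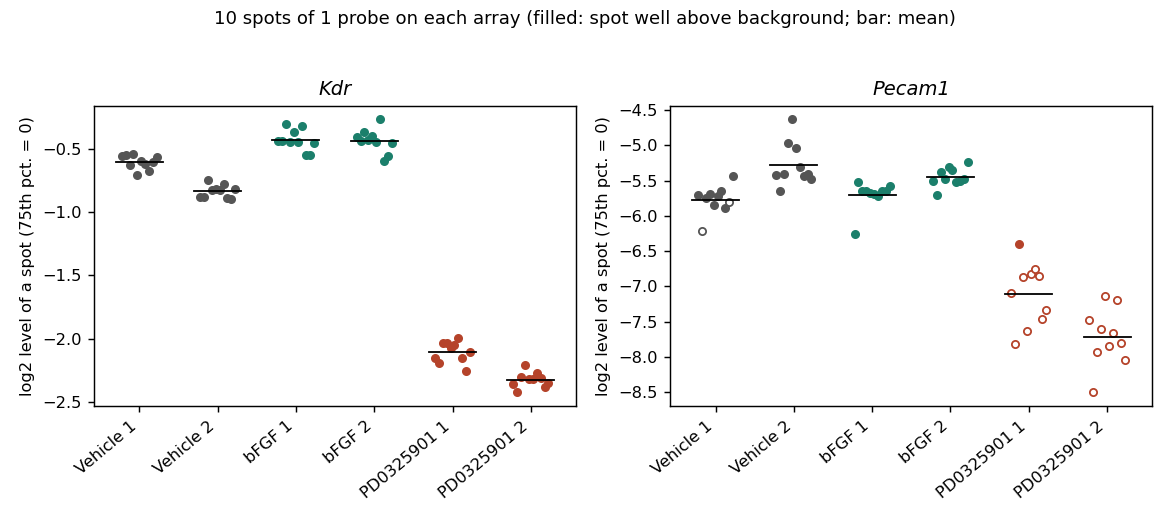
Log2 level of each of the 10 spots of the Kdr and Pecam1 probes on the 6 arrays (horizontal axis), with the mean as a bar, filled spots well above background and open spots not. The Kdr spots of the PD0325901 arrays lie between -2.42 and -1.99, below every vehicle and bFGF spot, and the Pecam1 spots spread more widely, with 1 of 20 well above background on the PD0325901 arrays.

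The Tie receptors were near the limit of the array. Tek, the angiopoietin receptor, read -7.26 and -7.03 with vehicle, -5.33 and -7.38 with bFGF and -8.20 and -8.35 with PD0325901. Only bFGF replicate 1 was well above background, so Tek was not tested and no fold is given. Tie1 read -1.55 and -6.35 with vehicle, -6.87 and -6.40 with bFGF and -7.54 and -8.48 with PD0325901. Its single spot on vehicle replicate 1 had a signal of 521 ± 52 (the scanner's own error) against 19.8 ± 5.2 on vehicle replicate 2, and no outlier flag was set on either. The lower of these was not well above background, so no fold is given between them. A difference in log2 level between the vehicle arrays as large as the 4.80 measured here was seen for 72 of 32631 probes (0.221%).

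Tie1 therefore has no settled level in vehicle. Its difference between PD0325901 and vehicle was -4.06 ± 1.65 and did not pass (limma adjusted p = 0.100). Without vehicle replicate 1 it was -1.66 ± 0.49 (adjusted p = 0.0661), and without vehicle replicate 2 it was -6.46 ± 0.49 and passed (adjusted p = 0.00412), so the value rests on the bright spot. In these fits the lone vehicle array is assumed to vary like the other groups. With all 6 arrays and an intensity trend in the variance, the difference of -4.06 passed (limma adjusted p = 0.0358). Over all alternatives its adjusted p lay between 0.00412 and 0.279. The values on the PD0325901 arrays were not well above background.

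Emcn, a surface sialomucin of capillary and venous endothelium, had levels of -3.33 and -3.08 with vehicle, -3.36 and -3.04 with bFGF and -5.45 and -5.65 with PD0325901. The vehicle and bFGF arrays overlapped, and both PD0325901 arrays lay below them, at signals of 34.6 and 29.5 against a lowest signal well above background of 16.1 and 19.3. Emcn fell by 2.34 ± 0.15 (5.06-fold, limma adjusted p = 6.41e-04), and 1.23% of all tested genes had a lower value. The inhibitor signals were thus measured, but near the detection limit.

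Among the junction genes, Cdh5, the cadherin of endothelial adherens junctions, was measured by a pair of probes that moved alike. The brighter one read -1.54 and -1.50 with vehicle, -1.65 and -1.56 with bFGF and -2.10 and -2.22 with PD0325901, with no overlap between PD0325901 and the other groups. It fell by 0.64 ± 0.06 (1.56-fold, limma adjusted p = 0.00170). The other Cdh5 probe, at -2.93 and -2.85 for vehicle and -3.45 and -3.54 for PD0325901, fell by 0.61 ± 0.06 (limma adjusted p = 0.00191 over all detected probes).

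Pecam1, an adhesion molecule of endothelial junctions, leukocytes and platelets, had 10 spots per array and was dim throughout. Its spot means were -5.77 and -5.27 with vehicle, -5.70 and -5.44 with bFGF and -7.10 and -7.72 with PD0325901, with an SD over spots of 0.13 to 0.44. Of its 10 spots, 8 and 10 were well above background on the vehicle arrays, 10 and 10 on the bFGF arrays and 1 and 0 on the PD0325901 arrays. On the processed signal Pecam1 was at least 1.85-fold lower under the inhibitor, a bound that does not hold under the normexp correction given below, with measured means of -7.41 and -5.52 (limma adjusted p = 0.00612).

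Esam, an adhesion molecule of endothelial tight junctions, did not fall with the others. It read -3.80 and -3.73 with vehicle, -3.60 and -3.38 with bFGF and -3.62 and -3.83 with PD0325901, and all were well above background. The vehicle and PD0325901 arrays overlapped, and the difference of 0.04 ± 0.11 did not pass (limma adjusted p = 0.810), with a 95% interval of -0.26 to 0.33. A difference between Esam and the genes that fell was not itself tested.

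Eng, the coreceptor for BMP9 and TGF-beta, read -2.32 and -2.35 with vehicle, -2.52 and -2.33 with bFGF and -2.68 and -2.84 with PD0325901. The PD0325901 arrays lay below the rest, and Eng fell by 0.43 ± 0.09 (1.34-fold, limma adjusted p = 0.0168). That call was lost without vehicle replicate 1 (-0.41, adjusted p = 0.0649), vehicle replicate 2 (-0.44, 0.0541) or PD0325901 replicate 2 (-0.35, 0.0781).

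Vwf, the adhesive glycoprotein of endothelial storage granules, read -4.49 and -4.06 with vehicle, -4.27 and -3.91 with bFGF and -4.51 and -4.95 with PD0325901. The arrays of a group differed by 0.37 to 0.44, about as much as the groups did. The difference between PD0325901 and vehicle was -0.46 ± 0.24 and did not pass (limma adjusted p = 0.176, 95% interval -1.10 to 0.19). The other Vwf probe stayed below that mark on all 6 arrays, at -7.69 to -6.51, and was not tested.

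The size of the falls of the dimmest genes depends on how background is handled and on any offset that is added. With normexp background correction and an offset of 50, Emcn fell by 1.18, Flt1 by 1.30 and Pecam1 by 0.40, and all 3 still passed (limma adjusted p = 1.98e-04, 2.10e-05 and 0.00422), while Kdr, a brighter probe, fell by 1.31. The offset, added to every signal, by itself shrinks the differences of dim probes. Its share was not separated from that of the background step.

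bFGF against vehicle asked which transcripts respond to a further growth factor in the same medium. None of the 9 tested genes, each by its brightest detected probe, passed (limma, 0 at an unadjusted p under 0.05 as well). Of all tested genes 19.9% passed (12.6% higher, 7.28% lower). The median of the 9 genes was -0.05, against 0.03 for all tested genes. Kdr differed by 0.29 ± 0.11 (limma adjusted p = 0.140, 95% interval -0.02 to 0.59) and Esam by 0.27 ± 0.11 (adjusted p = 0.153, interval -0.03 to 0.57), and in both genes the bFGF arrays lay above the vehicle arrays. Flt1 differed by -0.21 ± 0.09 (limma adjusted p = 0.143, interval -0.44 to 0.01), with both bFGF arrays below both vehicle arrays. Its dimmer probe, at -6.55 and -6.32 with bFGF, differed by -0.54 ± 0.17, with 1 of 2 vehicle arrays well above background. The interval of that probe was -0.99 to -0.10 (limma unadjusted p = 0.0265, adjusted p = 0.0913 over all detected probes), so it did not pass. For Emcn the difference was 0.01 ± 0.15, with an interval of -0.40 to 0.43. Tie1, with its bright spot on vehicle replicate 1, differed by -2.69 ± 1.65 (limma adjusted p = 0.290). The arrays of the groups did not overlap in 5 of the 9 genes, against 67.6% of all tested genes.

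Scaling bears on this comparison. Centring each array on its median in place of the 75th percentile moved the median of all genes by -0.134 between bFGF and vehicle, and then Flt1 (-0.35, limma adjusted p = 0.0368) and Cdh5 (-0.22, 0.0442) passed. Tie1 was called lower (-5.09, adjusted p = 0.0286) without vehicle replicate 2, which leaves only the bright spot in the vehicle group.

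Between bFGF and PD0325901, a comparison that shares its arrays with the other ones, 6 of the 9 genes were higher under bFGF and 0 lower, against 62% of all tested genes that passed, 36.6% higher and 25.4% lower. The arrays did not overlap in 9 of the 9 genes, against 86.6% of all tested genes. Emcn was higher by 2.35 ± 0.15, Flt1 by 2.07 ± 0.09 and Kdr by 1.78 ± 0.11 (limma adjusted p = 5.28e-04, 1.95e-04 and 4.87e-04). Cdh5 was higher by 0.55 ± 0.06 and Eng by 0.34 ± 0.09, and on the processed signal Pecam1 was at least 1.78-fold higher, with measured means of -5.57 and -7.41 (0.39 with normexp). Vwf differed by 0.64 ± 0.24 (limma adjusted p = 0.0756) and Esam by 0.23 ± 0.11 (0.132), which did not pass. Tie1 did not pass either (1.38 ± 1.65, limma adjusted p = 0.499), with 0 of 2 PD0325901 arrays well above background. Vwf passed with normexp (0.37, limma adjusted p = 0.0254) and with an intensity trend in the variance (0.64, 0.0412). Eng was the least stable call, lost under 8 of 17 alternatives. Its difference went down to 0.09 with arrays centred on their median (limma adjusted p = 0.369) and to 0.24 without bFGF replicate 2. The 8 count 1 fit more than once, because leaving out either vehicle array gives the fit of only these 2 groups.

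**Figure D3:**
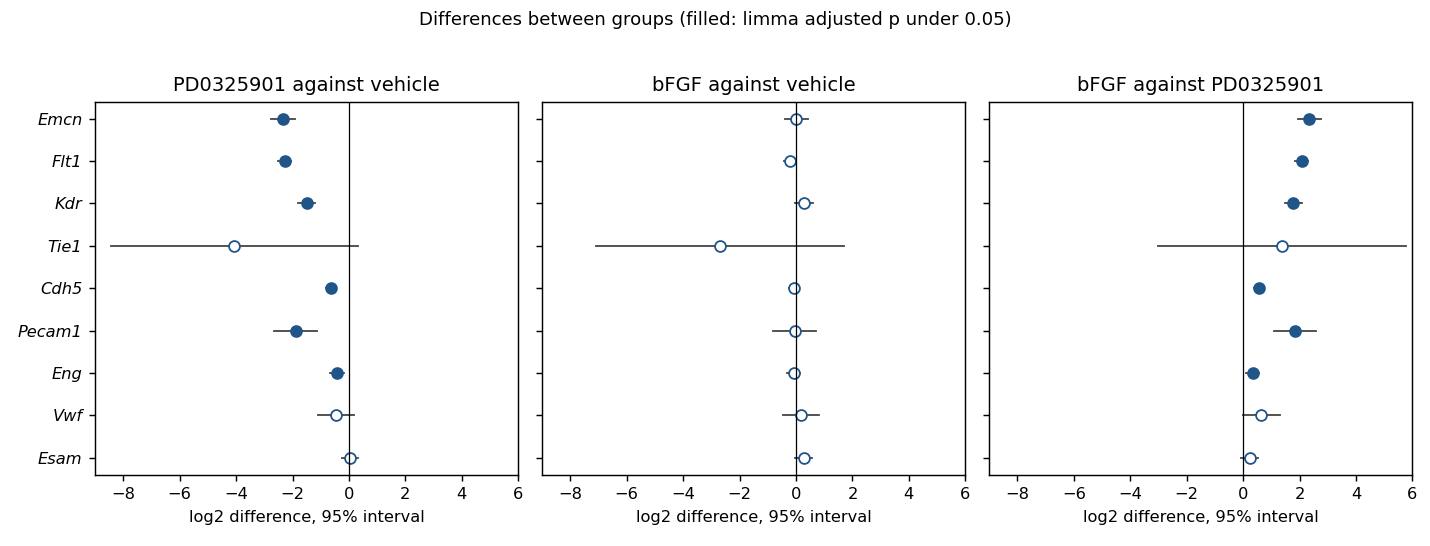
Log2 difference with its 95% interval (horizontal axis) for the 9 tested genes in each of the 3 comparisons, filled where the limma adjusted p was under 0.05. Emcn, Flt1, Kdr, Cdh5, Pecam1 and Eng lie below 0 for PD0325901 against vehicle, none of the 9 genes is filled for bFGF against vehicle, and the interval of Tie1 (-8.45 to 0.33 in the first panel) is the widest.

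The ligands and partner receptors of these genes moved in both directions under MEK inhibition. Of 17 listed genes, 14 were tested, of which 7 fell, 4 rose and 3 did not pass (78.6% passed, against 53.4% of all tested genes), and the median was -0.24 against -0.05. Vegfc, a ligand of Flt4 and Kdr, had levels of -0.09 and 0.14 with vehicle, 0.23 and 0.16 with bFGF and -2.52 and -2.42 with PD0325901. It fell by 2.50 ± 0.09 (limma adjusted p = 1.81e-04). Vegfd, the other ligand of Flt4, went the opposite way, from -2.59 and -2.38 for vehicle to 0.33 and 0.23 for PD0325901, and rose by 2.77 ± 0.10 (limma adjusted p = 1.70e-04).

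Flt4, VEGF receptor 3 of lymphatic endothelium, fell by 2.99 ± 0.04, from -1.33 and -1.36 to -4.37 and -4.31. Ptprb, a phosphatase that acts on Tek and Cdh5, fell by 1.84 ± 0.17, and Tgfb1, a ligand that binds with Eng, by 1.20 ± 0.04. Smaller changes were those of Vegfa, the ligand of Flt1 and Kdr, which fell by 0.21 ± 0.05, of Pgf, a ligand of Flt1, which fell by 0.27 ± 0.05, and of Vegfb, another Flt1 ligand, which rose by 0.33 ± 0.05. Acvrl1, a receptor that works with Eng, rose by 0.75 ± 0.09, and Angpt4, an angiopoietin, was at least 2.11-fold higher, with measured means of -5.15 and -6.51. The VEGF coreceptors Nrp1 (-0.23 ± 0.09) and Nrp2 (-0.10 ± 0.07) and the Tek ligand Angpt2 (-0.25 ± 0.16) did not pass. Angpt1, the main activator of Tek, was well above background only on vehicle replicate 2 and was not tested.

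With bFGF, 6 of those 14 genes passed against vehicle, 2 higher and 4 lower (42.9%, against 19.9% of all tested genes). Nrp1 fell by 0.65 ± 0.09, Flt4 by 0.44 ± 0.04, Acvrl1 by 0.41 ± 0.09 and Vegfa by 0.32 ± 0.05, and Vegfd rose by 0.49 ± 0.10 and Pgf by 0.27 ± 0.05. The bFGF calls of this and the later lists were not examined gene by gene under other processing. Centring arrays on their median moved the median of all genes by -0.134 in this comparison, and its total of called genes varied widely, as the closing section gives.

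Of 26 transcription factors known from endothelial cells, 23 were tested, of which 10 fell, 5 rose and 8 did not pass under PD0325901 (65.2% passed, against 53.4% of all tested genes), with a median of -0.36 against -0.05. Hhex, a homeobox factor of early endothelium and blood, fell by 1.88 ± 0.04, and the ETS factors Fli1 and Ets1 fell by 1.34 ± 0.13 and 1.09 ± 0.04. Foxc2, a factor of lymphatic vessels, fell by 1.33 ± 0.06, and Epas1, the hypoxia factor HIF-2 alpha, by 1.06 ± 0.14, with 1 of 2 PD0325901 arrays well above background. Tal1, a factor of blood and endothelium, passed as lower but was not well above background on any vehicle or PD0325901 array, so no size is given. Tal1 and Prox1 entered the counts and median only through the bFGF arrays. Klf4, a factor that many cell types express, rose by 1.31 ± 0.10. Erg, the ETS factor most typical of endothelium, and Etv2 were not well above background on any array, and Sox7 was on bFGF replicate 2 only. With bFGF, 3 of the 23 rose and 2 fell (21.7%, near the 19.9% of all tested genes), among them Epas1, which rose by 0.66 ± 0.14, and Hhex, which fell by 0.51 ± 0.04.

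A longer list of endothelial genes, from which the 10 were left out, gave 38 tested genes of 42 listed. Under PD0325901, 17 fell, 4 rose and 17 did not pass (55.3% passed, against 53.4% of all tested genes), and the median was -0.85 against -0.05. The counts and median include Esm1, Clec14a, Lyve1 and Dll4, which entered only through the bFGF arrays. The median was not taken over genes well above background on all arrays. The largest falls among genes that passed and were well above background on both vehicle arrays were those of Cd93 and Gja5. Cd93, a surface lectin, fell by 2.39 ± 0.11, and Gja5, a connexin of arteries, fell by 1.78 ± 0.22, with 1 of 2 PD0325901 arrays well above background. Vcam1, a leukocyte adhesion molecule, fell by 1.59 ± 0.10, Ramp2, a partner of the adrenomedullin receptor, by 1.46 ± 0.07, and Aplnr, the apelin receptor, by 1.45 ± 0.09. Aqp1, a water channel, fell by 1.22 ± 0.15, Selp (P-selectin) by 1.09 ± 0.10, Cd34 by 1.01 ± 0.18 and Gpihbp1, which holds lipoprotein lipase on capillaries, by 1.01 ± 0.16. Esm1 also passed as lower but was not well above background on the arrays of either group. Tspan18, a tetraspanin, and Mcam, an adhesion molecule also found on smooth muscle, rose by 1.61 ± 0.06 and 1.48 ± 0.08. With bFGF, 4 rose and 6 fell against vehicle (26.3%, against 19.9%). Mcam fell by 1.34 ± 0.08. Clec14a, a C-type lectin of endothelium, passed as higher but was not well above background with vehicle, and its bFGF level did not exceed the vehicle detection limit, so no size is given.

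**Figure D4:**
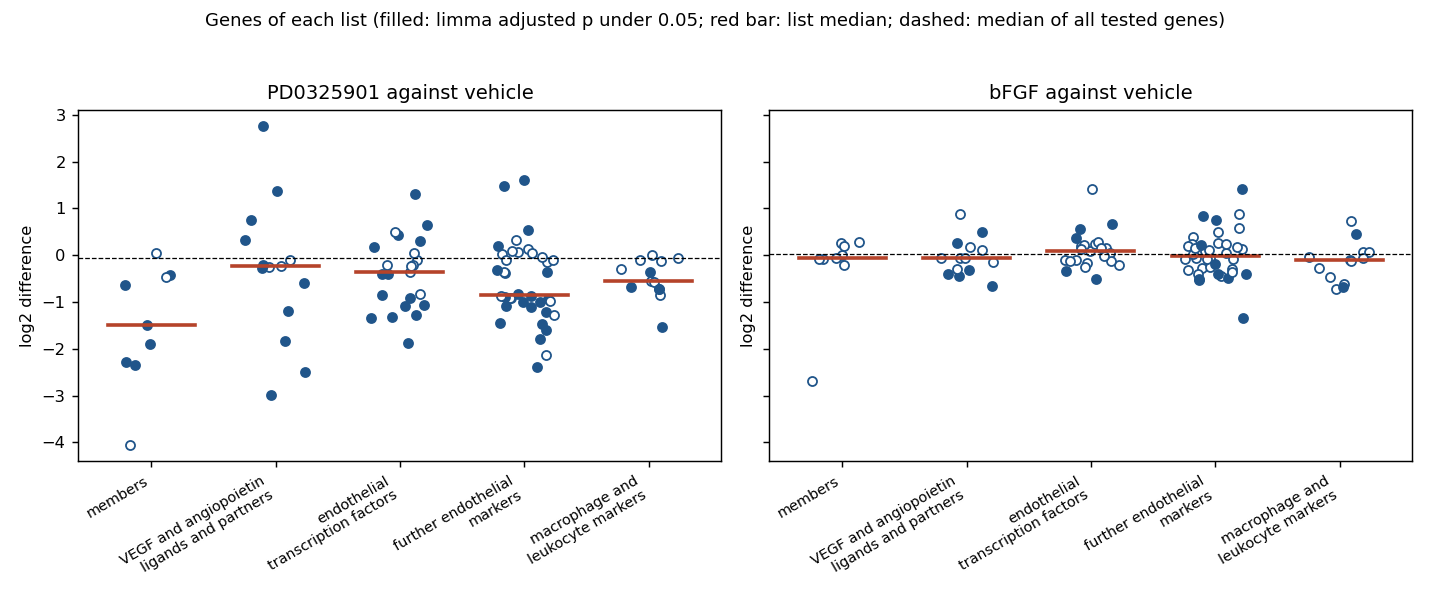
Log2 difference of each tested gene (vertical axis) in the 10 genes of the report and 4 further lists, for PD0325901 and for bFGF, each against vehicle, with filled points at a limma adjusted p under 0.05, a bar at the list's median and a dashed line at the median of all tested genes. For PD0325901 the medians are -1.49, -0.24, -0.36, -0.85 and -0.55 from left to right, and Vegfd is the highest point at 2.77.

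Within that longer list, in which 17 of 38 fell, 6 genes are used to define endothelial cells (Cldn5, Icam2, Robo4, Egfl7, Plvap and Nos3), and all 6 were well above background in all groups. Of these 6, 0 fell and 1 rose under PD0325901, Robo4 by 0.20 ± 0.04. The tight junction gene Cldn5 differed by -0.91 ± 0.29 (limma adjusted p = 0.0558) and Egfl7 and Nos3 by 0.07 ± 0.07 and 0.05 ± 0.06. Plvap (-1.28 ± 0.53) and Icam2 (-0.97 ± 0.89) had uneven replicates, with Plvap at -1.50 and -3.05 on the vehicle arrays and Icam2 at -3.40 and -5.93 on the PD0325901 arrays. The summed linear level of these 6 genes, in units of the 75th percentile, was 33.3 and 33.7 for vehicle and 37.5 and 38.9 for PD0325901, and without Robo4 it ranged from 0.853 to 0.993 for vehicle and from 0.653 to 0.801 for PD0325901.

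Macrophages and other leukocytes can also carry Pecam1. Of 13 tested markers of these cells, 5 fell (Ptprc, Lyz2, C1qa, C1qb and Mrc1), 0 rose and 8 did not pass under PD0325901 (38.5% passed, against 53.4% of all tested genes). The summed level of the list was 13.7 to 14.9 on the vehicle arrays and 9.58 to 9.82 on the PD0325901 arrays. It was 10.5 to 11.3 on the bFGF arrays, on which 1 marker rose and 1 (Lyz2) fell against vehicle (15.4% passed, against 19.9% of all tested genes). Without Lyz2 the sum was 5.18 to 5.33 with vehicle, 5.11 to 5.30 with bFGF and 4.19 to 4.27 with PD0325901. The summed level of the 10 endothelial genes was 1.56 to 1.91 for vehicle, 1.63 to 1.72 for bFGF and 0.715 to 0.814 for PD0325901. Without Kdr it was 0.996 to 1.26, 0.892 to 0.986 and 0.516 to 0.581. The sum of vehicle replicate 1 includes the bright Tie1 spot (-1.55). Of 7 platelet markers 4 were well above background in both replicates of a group and tested. Of these, Pf4 fell by 1.11 ± 0.29 and Itga2b rose by 0.66 ± 0.05 under PD0325901 (50% passed, against 53.4% of all tested genes). Gp9 and Ppbp were well above background on 0 of 6 arrays. Of 12 markers of pericytes and peritubular myoid cells 7 rose and 1 fell, of 7 fibroblast markers 4 rose and 0 fell, of 4 Leydig cell markers 0 rose and 2 fell, of 9 germ cell markers 3 rose and 3 fell, and of the 16 Sertoli cell markers 6 rose and 5 fell. These shares of 66.7%, 57.1%, 50%, 66.7% and 68.8% passed stand beside 53.4% of all tested genes, 24.1% higher and 29.3% lower. Of the germ cell markers, Gfra1 entered only through the bFGF arrays. The part of such cells in the falls was not tested.

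The genes whose pattern was closest to each of the 6 genes that fell were found by the root mean square distance over the 6 arrays, after each gene was centred on its mean, among 14227 other genes. Nearest to Flt1 were Dyrk3, Myoz1 and Ifi47 (0.0787, 0.0826 and 0.0876 on the log2 scale), and nearest to Emcn were Ccn4, Ppfia2 and Fgd6 (0.120, 0.122 and 0.132). Kdr was closest to Ghrl, Lrg1 and Npy4r (0.0772, 0.0803 and 0.0929), and Pecam1 to Reg3g, Steap3 and Fap (0.122, 0.135 and 0.135). The Pecam1 distances rest in part on its PD0325901 values, which were not well above background. For Cdh5 they were Cd47, Igf1 and Rcn1 (0.0377 to 0.0386), and for Eng they were Gsn, C1qtnf5 and Plxna2 (0.0343 to 0.0413). None of these 18 genes stood on the endothelial lists used here. Those lists hold only 14, 23 and 38 tested genes, a small share of the 14227 searched, so that absence says little.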

How the data were processed

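The 6 scanner files give a linear intensity per spot. Agilent Feature Extraction 9.5.3.1 wrote them, per the file headers (9.5 per the submitters' processing notes), and the processed intensity the authors deposited has background subtracted within each array and no scaling across arrays. The authors also deposited a table of log2 values, which equals the log2 processed intensity scaled per array and centred on each probe's median over the arrays, for 100% of values of 40846 single-spot probes within 0.01. So higher means brighter, as in the scanner files, and what is unknown is 1 constant shared by the columns. Column medians were 0.0195 and 0.0179 (vehicle), 0.00522 and 0.00447 (bFGF) and -0.107 and -0.0124 (PD0325901).

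Controls and outlier-flagged spots were removed, with them 83 probes, and spots of a probe were averaged on the log2 scale. No spot was saturated. A probe counted as well above background on an array when at least 0.5 of its spots did. Probes were named (23341 of 41091) through their accession and a RefSeq table of assembly GRCm38.p6. The array was designed on an older build, so no probe coordinates are given. The promoter coordinates are those of the RefSeq table. Each gene was represented by its brightest detected probe (mean of 6 arrays). The 3 groups entered a single limma 3.58.1 model (R 4.3.3), which leaves 3 residual degrees of freedom. On data simulated with the spread of the tested genes, it recovered 46% of 1.5-fold, 70% of 2-fold and 86% of 4-fold changes. A gene that did not pass may thus still differ. Benjamini-Hochberg adjustment ran over 14236 genes, and 0.05 was the threshold. An alternative background correction, normexp, used the median spot signal because no mean-signal column was at hand. Other alternatives are in the closing section. Precision is limited by the number of arrays (median SE 0.07 over all genes).

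The text names all 10 genes, and from the lists those that passed with at least a 2-fold difference under PD0325901 and those that bind or act on one of the 10. For the marker lists and smaller changes, names were chosen after their values were seen. The genes and lists were chosen with earlier results of these data known. Replicate arrays differed beyond spot-to-spot noise (median variance ratio 1.82 to 3.03 over 245 probes with 10 spots) and each counted as 1 sample.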

Additional observations from a re-analysis of the deposited data

How the results depend on the processing

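Emcn, Flt1, Kdr and Cdh5 kept their direction and call between PD0325901 and each other group under 17 of 17 alternatives, and Pecam1 under the 16 of 16 that tested it. Not all of these are separate: leaving out an array of the third group gives the same fit as comparing only the 2 groups. The number of the 10 genes called stayed at 5 to 7 in both comparisons. Against vehicle, bFGF called 0 of them except with arrays centred on their median (2) and with 1 replicate left out (0 to 1). Over all genes the bFGF count of 2834 became 5476 with the array median (1431 higher and 4045 lower, against 1797 and 1037), 1139 with only the 2 groups compared and 0 to 1882 with 1 replicate left out. The 0 was without bFGF replicate 2, where 3722 genes had an unadjusted limma p under 0.05. The median also turned the split for PD0325901 against vehicle from 3428 higher and 4168 lower to 4708 and 3176 (3845 and 3463 with quantile normalization), and for bFGF against PD0325901 from 5205 and 3622 to 3408 and 6606. It moved the median of all genes by 0.109 and -0.243 there. The cause was not tested.

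Differences that changed sign had not passed. For bFGF against vehicle, Emcn became -0.09 with quantile normalization and -0.12 with the median, and Vwf -0.01 with quantile normalization. For bFGF against PD0325901, Esam became -0.01 with the median. With 1 replicate left out, bFGF against vehicle ranged from -0.15 to 0.17 for Emcn, -0.30 to 0.20 for Pecam1, -0.18 to 0.00 for Eng and -0.03 to 0.40 for Vwf, and PD0325901 against vehicle from -0.07 to 0.14 for Esam.

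With the replicate number as a block, 6, 0 and 5 of the 10 genes and 6955, 1410 and 8183 of all genes passed for PD0325901 against vehicle, bFGF against vehicle and bFGF against PD0325901. The call lost was Eng (0.34, limma adjusted p = 0.0622). Same-numbered deviations correlated only weakly, at -0.08, 0.12 and -0.12 over 14236 genes. With 1 such difference per group, this cannot show whether the samples were paired. A fit with the slide as a block was not run, because each slide holds 1 group. Signal over background limits Tek, Tie1, Pecam1 and the dimmer Flt1 and Vwf probes.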
